A study of Homo sapiens with 12 samples.

Results

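The genes SLC26A3, SPOCK1, OTULINL, ASCL2, CDC42EP3, GADD45G, TICAM2 and ZNF134 are described here, 8 of the 12227 genes tested in a prostate cancer cell line that expressed forms of SPOP. They were chosen by their values in an earlier limma fit of the same arrays, because wild-type SPOP and the SPOP mutants moved them in opposite directions away from the control vector. Every difference between wild-type SPOP, the mutants as a set and the control vector is therefore given for these genes as a description, with no test. Differences among the mutants were not used in the choice and were tested. That test draws on the spread of the same arrays, which also entered the choice, so the test is not wholly separate from it.

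The cells were LNCaP-Abl, an androgen-independent derivative of the LNCaP prostate cancer line. They grew in RPMI1640 with 10% charcoal-stripped serum, which is low in steroid hormones, and doxycycline was used to induce the transfected construct. The groups were control vector (3 arrays), wild-type SPOP (3 arrays), and SPOP F102C, SPOP F133V and SPOP F133L (2 arrays each), and the series asked how wild-type and mutant SPOP differ in their effect on expression. The design text calls the replicates biological, but nothing says whether they came from separate cultures or lines, so each p-value reflects only how far these arrays scatter. RNA was measured on Illumina bead arrays with 47323 probes.

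SPOP is the part of a CUL3 ubiquitin ligase that recognises the proteins to be marked for degradation. Its substrates include the androgen receptor and several coactivators and chromatin proteins. The mutations found in prostate cancer sit in the substrate-binding domain and weaken binding, and a mutant subunit can also hamper the wild-type subunit with which it pairs. The 8 genes do not form a pathway. They encode an anion exchanger, a proteoglycan, a relative of a deubiquitinase, a transcription factor, a cytoskeletal adaptor, a stress-response protein, an innate immune adaptor and a zinc finger protein.

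Median scanned intensity was 109 to 123.1 with the mutants, 120.5 to 126 with wild-type SPOP and 123.3 to 130.4 with control vector. Every mutant array was thus dimmer than every control array, by little at the edge, and wild-type SPOP overlapped both. Per array, 19272 to 19677 probes were detected with control vector and 18906 to 19175 with wild-type SPOP. Among the mutants the numbers were 18482 and 19543 with F102C, 17485 and 17864 with F133V, and 18530 and 18651 with F133L. Pearson r between arrays was 0.9903 to 0.9945 within groups and 0.9833 to 0.9924 between them. The SPOP probe differed from control vector by -0.05 (SE 0.10) in wild-type SPOP and by -0.14 (SE 0.08) in the mutants on the log2 scale, with limma adjusted p of 0.841 and 0.346. Whether that probe lies in the expressed construct was not tested, so it does not check the labels. Of 12 listed luminal epithelial markers 10 had a probe, and all of these were tested. With wild-type SPOP 3 of them were higher and 0 lower than control vector (median 0.27), beside 3.08% and 3.07% of all tested genes. In the mutants 6 were higher and 0 lower than control vector (median 0.56), beside 5.59% and 6.62%, with KRT19 at 1.39 (limma adjusted p 9.19e-06). Against wild-type SPOP 3 were higher in the mutants and 1 lower, FOLH1 at -0.48 (adjusted p 0.0112), beside 5.57% and 6.18%. The summed level of these markers, in linear units after normalization, was 18000 to 18450 on control arrays, 19940 to 20950 with wild-type SPOP and 18800 to 19850 on mutant arrays. Of 8 fibroblast markers with a probe 7 were detected on no array, as were 4 of 5 measured basal markers, KRT5 and KRT14 among them.

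The opposite pattern was rare in the whole table. At an adjusted p under 0.05, wild-type SPOP was higher than control vector for 3.08% of tested genes and lower for 3.07%. The mutants as a set were higher than control vector for 5.59% and lower for 6.62%, and higher than wild-type SPOP for 5.57% and lower for 6.18%. Of the 396 genes called against control vector on both sides, 374 moved the same way and 22 the opposite way, which is 0.18% of tested genes. The 8 genes belong to these 22 by choice. Wild-type SPOP was below control vector for 13 of the 22 and above it for 9. The other 14 were EAF2, TP53INP1, H2BC21, NQO1, FKBP5, PRAG1, H2AC6, LTN1, TSKU, RGS2, ABCC4, KCNMA1, H2AC18 and H2BC5. Both sets of differences share the control arrays, so their signs are not independent of each other.

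**Figure D1:**
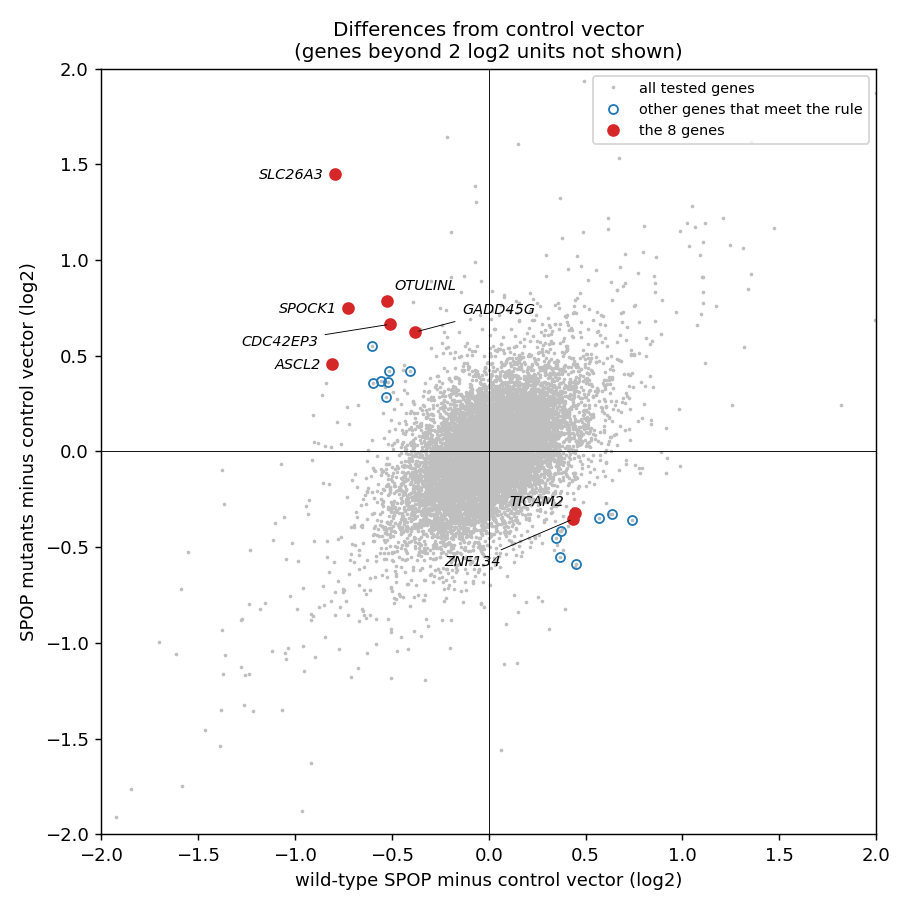
Log2 difference of wild-type SPOP from control vector (horizontal axis) against that of the mutants as a set (vertical axis). Grey points are tested genes, blue circles the 14 other genes that meet the rule and red points the 8 genes described, with SLC26A3 at -0.79 and 1.45.

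The rule is a threshold, and genes lay close to it on both sides. Just inside were H2AC18, ZNF134 and NQO1, whose larger adjusted p was 0.0451, 0.0435 and 0.0417. Just outside were SOCS2 (-0.84 in wild-type SPOP, 0.36 in the mutants), H4C8 (0.33 and -0.27) and NUDT1 (-0.42 and 0.30), with larger adjusted p of 0.0525, 0.0527 and 0.0534.

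SLC26A3 encodes a chloride and bicarbonate exchanger of the apical membrane, best known from the colon. Its level, on the background-corrected and quantile-normalized log2 scale used throughout, was 6.28, 6.20 and 6.37 on the control arrays and 5.67, 5.33 and 5.46 with wild-type SPOP. It was 7.30 and 7.33 with F102C, 7.76 and 7.82 with F133V, and 8.06 and 8.12 with F133L. On this scale the arrays of the 5 groups did not overlap at any step, in the order wild-type SPOP, control vector, F102C, F133V, F133L. Wild-type SPOP was 0.79 log2 units below control vector (difference -0.79, SE 0.10), and the mutants as a set were 1.45 (SE 0.09) above it. The mutants exceeded wild-type SPOP by 2.24 (SE 0.09), a 4.74-fold gap on this scale. That gap was the largest in size of all 12227 tested genes in this comparison. The gene was chosen on both parts of the gap, so nothing is read from the rank.

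The promoter windows of SLC26A3, GADD45G and TICAM2 are shown because SLC26A3 and GADD45G varied most among the mutants while TICAM2 moved the other way. Each window runs from 250 bases before to 50 bases after a RefSeq start, in build GRCh38.p14, and 6 of the 8 genes had an entry. They lie at chr7:107803174-107803473 on the minus strand, chr9:89604762-89605061 on the plus strand and chr5:115602430-115602729 on the minus strand. Capitals mark matches, on either strand, to the letters listed after the sequences.
SLC26A3: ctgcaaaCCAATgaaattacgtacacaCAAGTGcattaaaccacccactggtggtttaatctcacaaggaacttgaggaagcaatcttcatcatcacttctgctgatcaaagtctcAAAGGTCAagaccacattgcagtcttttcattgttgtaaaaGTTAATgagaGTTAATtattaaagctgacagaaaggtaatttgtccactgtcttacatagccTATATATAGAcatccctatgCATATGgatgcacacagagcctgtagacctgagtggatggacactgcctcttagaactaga
GADD45G: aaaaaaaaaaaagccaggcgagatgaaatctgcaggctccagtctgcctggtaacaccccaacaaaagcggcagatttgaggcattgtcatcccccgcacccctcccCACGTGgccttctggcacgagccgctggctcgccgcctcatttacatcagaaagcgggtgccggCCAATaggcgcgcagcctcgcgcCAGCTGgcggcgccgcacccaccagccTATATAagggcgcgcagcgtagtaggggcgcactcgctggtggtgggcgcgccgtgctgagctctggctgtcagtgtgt
TICAM2: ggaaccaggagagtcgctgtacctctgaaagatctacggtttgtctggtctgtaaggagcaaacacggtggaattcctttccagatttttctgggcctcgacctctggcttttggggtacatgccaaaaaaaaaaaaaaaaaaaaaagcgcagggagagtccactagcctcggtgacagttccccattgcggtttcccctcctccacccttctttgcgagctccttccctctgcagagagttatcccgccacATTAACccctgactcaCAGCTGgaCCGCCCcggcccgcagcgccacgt

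The motifs were picked after the sequences had been seen, 8 in all, and were searched on both strands in 35114 promoter windows of 300 bases. TATANA, the core of a TATA box, was in the windows of SLC26A3 and GADD45G, 2 of the 6 genes, against 19% of all windows. AAAGGTCA, a half-site for HNF4, was in that of SLC26A3 and in 1.22% of all windows, and GTTAAT, a half-site for HNF1, was in 3 of 6 genes and 6.88% of windows. CDC42EP3 has 3 windows, each gene here counts once if any of its windows holds the letters, and the shares are per window, so the counts and shares are not on the same footing. The SLC26A3 window had a GC content of 39.7%, lower than 88.8% of windows, beside a median of 58.7%. The steroid receptor half-site TGTTCT (14.8% of windows) and the forkhead core TGTTTAC (3.42%) were in 0 of 6. CANNTG, the E-box, was in 6 of 6 and in 68.7% of windows. CCAAT was in 3 of 6 (34.6% of windows) and GGGCGG, the GC box, in 4 of 6 (45% of windows). These matches say only which letters are present. CANNTG can hold letters of other motifs, so overlapping matches share bases.

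SPOCK1 encodes testican-1, a secreted proteoglycan of the extracellular matrix. Its level was 7.06, 7.10 and 6.95 on control arrays, 6.30, 6.20 and 6.43 with wild-type SPOP, 7.58 and 7.53 with F102C, 8.03 and 8.02 with F133V, and 7.92 and 7.63 with F133L. The wild-type SPOP arrays were the lowest, the control arrays lay between, and all mutant arrays were higher. The differences from control vector were -0.73 (SE 0.10) for wild-type SPOP and 0.75 (SE 0.09) for the mutants, nearly the same size in each direction. The gap of 1.48 (SE 0.09) between mutants and wild-type SPOP ranked 5 among all genes by size, a rank from which nothing is read either.

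OTULINL encodes a relative of the deubiquitinase OTULIN that lacks its catalytic activity. Levels were 6.99, 7.12 and 6.78 on control arrays, 6.46, 6.40 and 6.46 with wild-type SPOP, 7.63 and 7.60 with F102C, 7.74 and 7.85 with F133V, and 7.84 and 7.86 with F133L. Wild-type SPOP, control and mutant arrays did not overlap, while the F133V and F133L arrays overlapped each other. The control arrays spread more than those of any other group for this gene. Wild-type SPOP differed from control vector by -0.53 (SE 0.10) and the mutants by 0.79 (SE 0.09).

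ASCL2 encodes a basic helix-loop-helix transcription factor that keeps intestinal stem cells and trophoblast progenitors in their state. Its level was 8.17, 8.19 and 8.14 on control arrays, 7.44, 7.29 and 7.33 with wild-type SPOP, 8.55 and 8.45 with F102C, 8.76 and 8.72 with F133V, and 8.53 and 8.73 with F133L. Wild-type SPOP stood clearly apart, and the mutant arrays lay a small step above control. Here the wild-type side was the larger, with differences of -0.81 (SE 0.09) for wild-type SPOP and 0.46 (SE 0.08) for the mutants. Scaling arrays to equal medians turned the mutant value to -0.02.

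CDC42EP3 encodes an effector of the small GTPase CDC42 that binds septins and actin. Levels were 5.93, 6.04 and 6.0 on control arrays, 5.71, 5.25 and 5.49 with wild-type SPOP, 6.61 and 6.63 with F102C, 6.70 and 6.74 with F133V, and 6.55 and 6.71 with F133L. All mutant arrays lay above control, and the F133L arrays overlapped those of both other mutants. The differences from control vector were -0.51 (SE 0.11) and 0.66 (SE 0.10).

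GADD45G encodes a stress-inducible protein that binds cell-cycle regulators and activates the MAP3K4 kinase. Its level was 7.47, 7.64 and 7.52 on control arrays, 7.20, 7.22 and 7.08 with wild-type SPOP, 7.80 and 7.85 with F102C, 8.20 and 8.18 with F133V, and 8.58 and 8.40 with F133L. As for SLC26A3, all 5 groups were separate on the normalized scale and in the same order. Wild-type SPOP differed from control vector by -0.38 (SE 0.09), the smallest wild-type shift of the 8, and the mutants by 0.62 (SE 0.08).

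TICAM2 encodes TRAM, the adaptor that links Toll-like receptor 4 to TRIF inside the cell. Its level was 5.40, 5.58 and 5.66 on control arrays, 6.05, 5.94 and 5.98 with wild-type SPOP, 5.23 and 5.39 with F102C, 5.19 and 5.0 with F133V, and 5.32 and 5.23 with F133L. Wild-type SPOP was highest and F133V lowest, and the lowest control array at 5.40 was barely above the highest mutant array at 5.39. The differences were 0.44 (SE 0.10) for wild-type SPOP and -0.32 (SE 0.09) for the mutants. The probe was detected on 11 of the 12 arrays, all but F133V array 2. The readthrough gene TMED7-TICAM2 shares exons with TICAM2 and the arrays cannot tell them apart. TMED7 itself differed by -0.18 (SE 0.11) and -0.15 (SE 0.10), with limma adjusted p of 0.409 and 0.384. The probe that stood for TMED7 read 704 to 2019 in scanned intensity, beside 115.8 to 178.5 for that of TICAM2. The share of the readthrough in the TICAM2 values was not tested.

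ZNF134 encodes a C2H2 zinc finger protein of the large cluster on chromosome 19. Its brighter probe read 5.60, 5.47 and 5.83 on control arrays, 6.08, 6.07 and 6.07 with wild-type SPOP, 5.46 and 5.41 with F102C, 5.30 and 5.17 with F133V, and 5.34 and 5.02 with F133L. Wild-type SPOP was highest, and the lowest control array at 5.47 was barely above the highest mutant array at 5.46. The differences were 0.44 (SE 0.11) and -0.35 (SE 0.10). Its dimmer probe, detected on 5 of 12 arrays, did not show this: it read 5.18, 4.88 and 4.91 on control arrays and 5.37, 4.56 and 5.24 with wild-type SPOP. Differences for that probe were 0.07 (SE 0.18) for wild-type SPOP and -0.11 (SE 0.16) for the mutants.

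**Figure D2:**
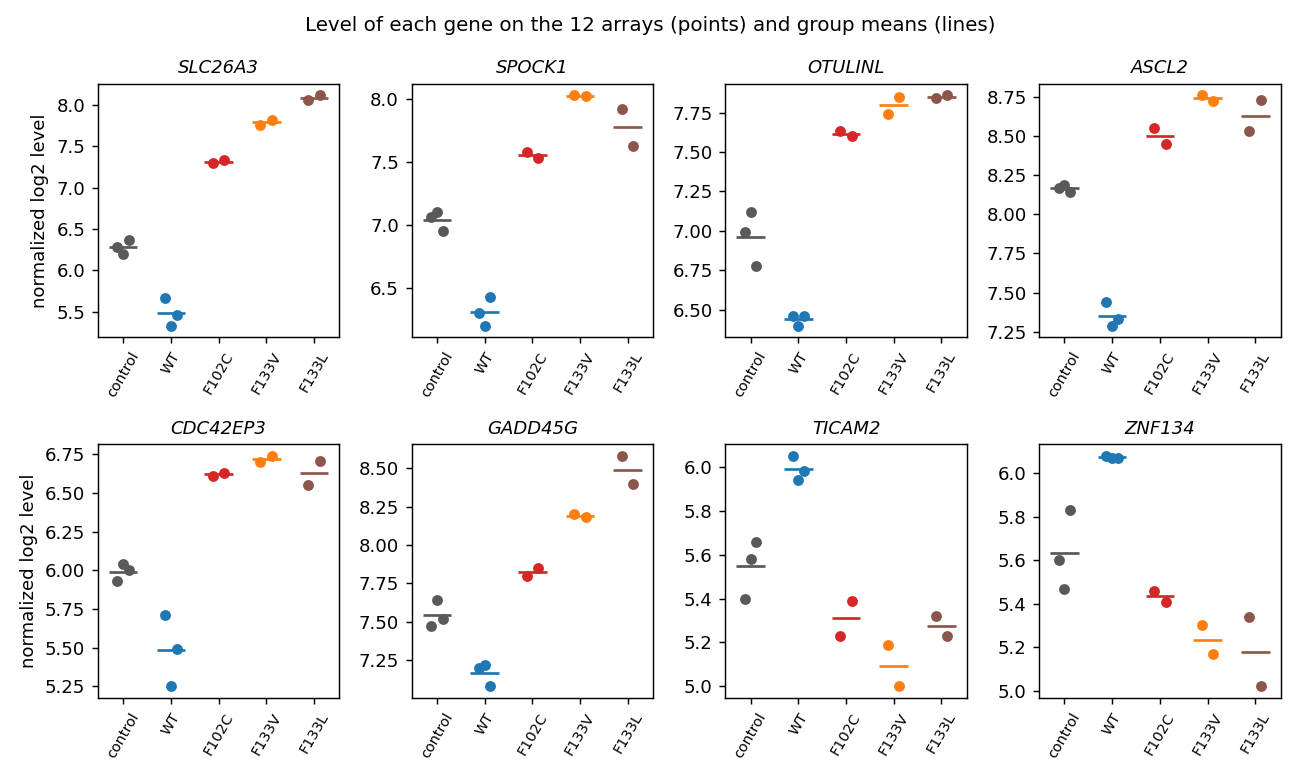
Normalized log2 level of the 8 genes by group, with 1 point per array and lines at group means. The vertical axes differ between panels and do not start at 0. Control arrays lie between wild-type SPOP and mutant arrays in every panel, at 6.20 to 6.37 for SLC26A3 against 5.33 to 5.67 and 7.30 to 8.12.

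After normalization the control arrays lay between the wild-type SPOP and mutant arrays with no overlap for 8 of 8 genes, a pattern that 103 of the 12227 genes (0.842%) showed. Since the rule used these contrasts, nothing is read from that count. The same order appeared on the authors' deposited log2 values, but these arrays were ranked alike by every quantile-normalized scale, so this is not a separate check.

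On the scanned intensities, before any scaling between arrays, the picture differed. SLC26A3 alone of the 8 kept the full order, at 138 to 159 with wild-type SPOP, 181 to 204 on control arrays and 205 to 347 on mutant arrays. The full order held for 0.499% of all tested genes on that scale. This comparison was added after the data had been seen.

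For the 5 other genes that were higher in the mutants, wild-type SPOP arrays were dimmer than every control array, whereas mutant arrays overlapped the control arrays. ASCL2 read 259 to 304 with wild-type SPOP, 441 to 487 on control arrays and 317 to 480 on mutant arrays. GADD45G read 328 to 340 on control arrays and 246 to 433 on mutant arrays, and SPOCK1 256 to 279 and 229 to 309. OTULINL read 238 to 271 on control and 203 to 304 on mutant arrays, and CDC42EP3 173 to 181 and 149 to 200. For TICAM2 and ZNF134 the reverse held: mutant arrays, at 116 to 141 and 117 to 142, were all dimmer than control arrays, at 151 to 163 and 147 to 171, and wild-type SPOP arrays overlapped control. Scaling to equal medians shifted the median of all genes by -0.37 for mutants against control vector, and scaling on the median of only those probes that every array detected shifted it by 0.11. Calls higher and lower in the mutants were 156 and 6779 under the former and 2297 and 734 under the latter, beside 684 and 810 as reported. For mutants against wild-type SPOP they were 141 and 4476, 1644 and 560, and 681 and 756, and for wild-type SPOP against control vector 169 and 424, 411 and 386, and 377 and 375. The full order held for 3 of the 8 genes (SLC26A3, TICAM2 and ZNF134) under the former, and under the latter for the 6 that were higher in the mutants, SLC26A3 among them.

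**Figure D3:**
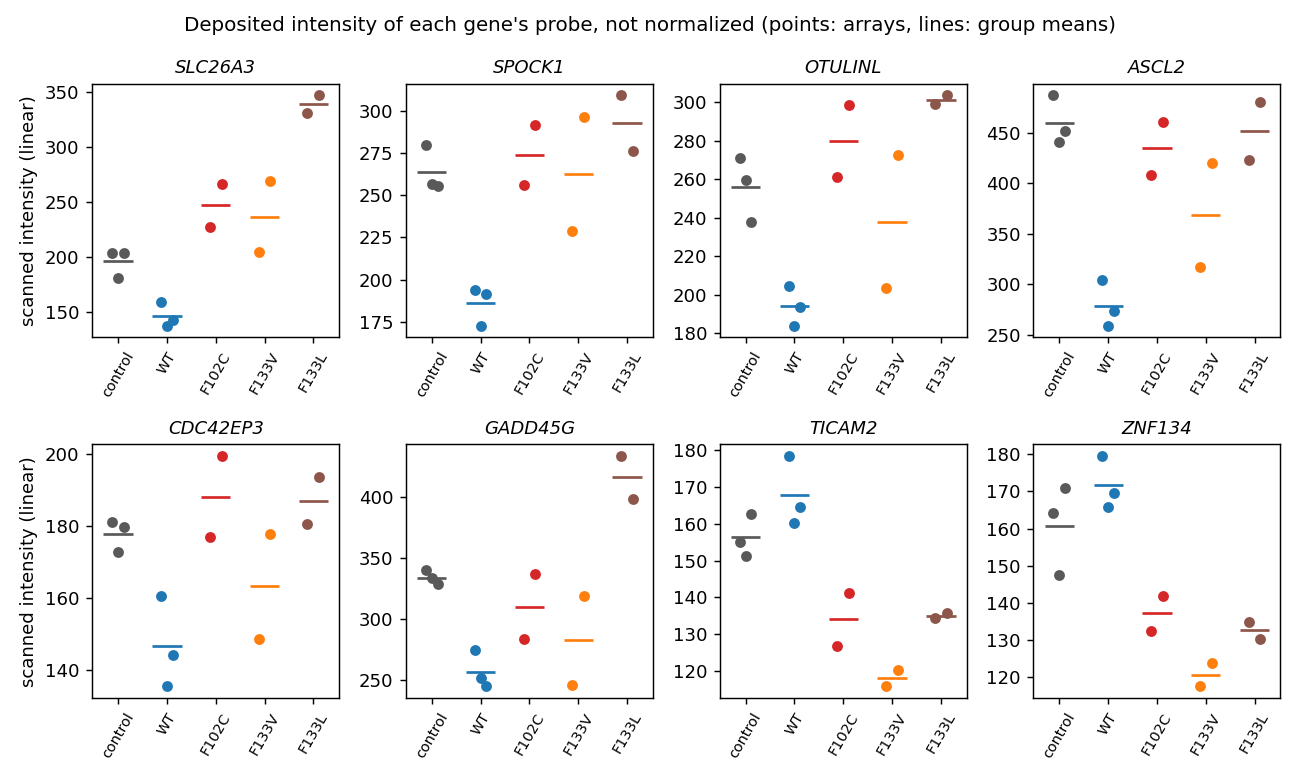
Deposited bead intensity (linear, not normalized) of the probe for each gene, with 1 point per array and lines at group means. The vertical axes differ between panels and do not start at 0. ASCL2 mutant arrays at 317 to 480 overlap control arrays at 441 to 487, while SLC26A3 mutant arrays reach 347.

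All 3 mutants lay on the same side of control vector for each of the 8 genes, and F102C stood closest to control in 8 of 8. That count was 6 under either scaling to equal medians, 7 without F102C replicate 2 and 6 without F133L replicate 2, and for CDC42EP3 it rests on 0.63 against 0.64. Against control vector, SLC26A3 was 1.03 higher with F102C, 1.51 with F133V and 1.81 with F133L (SE 0.11 each). GADD45G was 0.28, 0.65 and 0.94 higher (SE 0.10 each). SPOCK1 was 0.52, 0.99 and 0.74 higher (SE 0.11 each), so F133V led there. TICAM2 showed -0.24, -0.45 and -0.27 (SE 0.11 each) and ZNF134 showed -0.20, -0.40 and -0.46 (SE 0.13 each). As background, F102C was the closest of the 3 to control for 49.5% of the 1494 genes called in the mutants against control vector and for 40.5% of all tested genes. It was closest for 10 of the 14 other genes that met the rule.

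**Figure D4:**
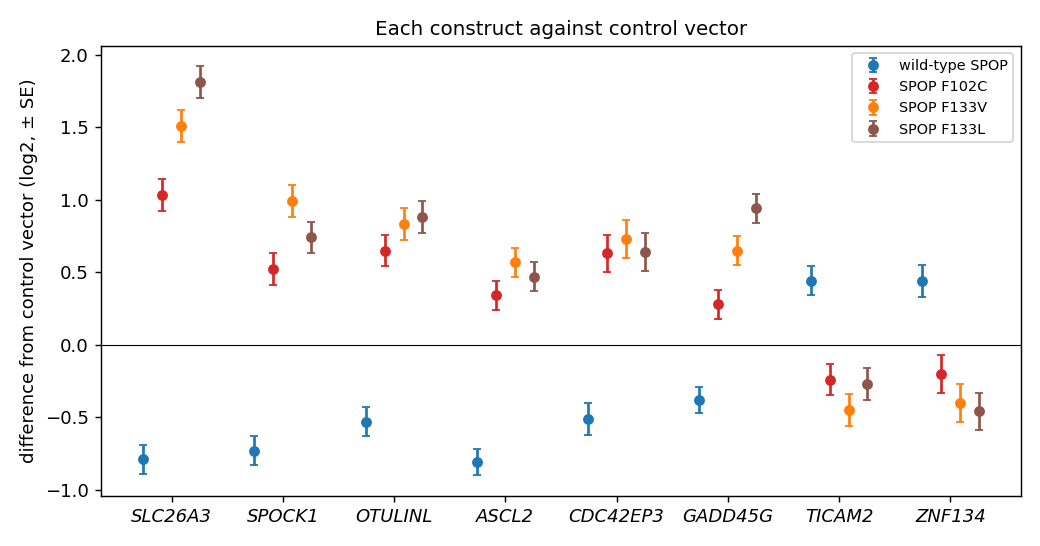
Log2 difference from control vector for each gene, with bars of 1 SE from the limma fit. Wild-type SPOP lies on the other side of 0 from all 3 mutants for each gene, and F102C is nearest to 0 of the mutants, for example 1.03 against 1.51 and 1.81 for SLC26A3.

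The order within the mutants was tested across all genes with limma's F test. It called 3 genes (0.0245% of those tested): DSE, RGS2 and THAP8, of which RGS2 also met the opposite rule. At an unadjusted p under 0.05 there were 1443. None of the 8 genes passed, although SLC26A3 and GADD45G came close, at ranks 24 and 36 of 12227 with adjusted p of 0.0876 and 0.0983. SPOCK1 followed at 0.253, and the other 5 were at 0.543 to 0.91.

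Both genes near the threshold were called under 4 of 12 processing alternatives. Their adjusted p was 0.0138 and 0.0454 with a normexp correction that used no control distribution, and 0.00648 and 0.0127 with no background correction. It was 0.0104 and 0.0277 on the authors' deposited log2 values, and 0.0389 and 0.0291 with a trended, robust eBayes. Over all 12 processing alternatives it ran up to 0.444 for both, and neither was called with any of the 12 arrays left out. These tests rest on 2 arrays per mutant.

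The mean of F133V and F133L exceeded F102C by 0.63 (SE 0.11) for SLC26A3, with limma adjusted p of 0.0845 and a 95% interval of 0.39 to 0.86. For GADD45G the difference was 0.52 (SE 0.10), adjusted p 0.109, and for SPOCK1 0.34 (SE 0.11), adjusted p 0.318. OTULINL showed 0.20, ASCL2 0.18 and CDC42EP3 0.06, each of which turned negative when arrays were scaled to equal medians. TICAM2 showed -0.12, which became 0.08 with scaling to equal medians of the detected probes, and ZNF134 showed -0.23. In this comparison 0% of all genes were called, against 1204 at an unadjusted p under 0.05. The mean of F133V and F133L lay farther from control vector than F102C for 8 of 8 genes (6 with equal medians and 7 with equal medians of detected probes), as it did for 68% of the genes called in the mutants and 58.1% of all genes. With equal medians the excess fell to 0.35 for SLC26A3 and 0.25 for GADD45G. On scanned intensities the F133V arrays overlapped those of F102C for both genes. SLC26A3 read 204.7 and 268.9 with F133V against 227.7 and 266 with F102C, and GADD45G 245.9 and 318.4 against 283.2 and 336.3. The F133L arrays were brighter, at 330.8 and 346.8 for SLC26A3 and 433.4 and 398.1 for GADD45G.

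F133L exceeded F133V by 0.30 for SLC26A3 (95% interval 0.03 to 0.57) and by 0.30 for GADD45G (0.05 to 0.54), with limma adjusted p of 0.417 and 0.369. SPOCK1 ran the other way at -0.25 (-0.53 to 0.02), adjusted p 0.499. Calls were made for 0.00818% of genes in this comparison, and 1326 genes had an unadjusted p under 0.05. None of the 8 genes was among the calls.

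The levels of the 8 genes followed one another over the 12 arrays, with the sign of TICAM2 and ZNF134 turned. Pearson r ran from 0.84 to 0.98 over the 28 pairs, with a median of 0.95, as it must for genes chosen for the same group pattern on shared arrays. Deviations from the group means, which leave that pattern out, correlated at -0.43 to 0.81 with a median of 0.09.

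The genes that were no member and most like each one over the 12 arrays, by Pearson r, shared several names. SLC26A3 was closest to CTNNA2 (0.990), RPL29 (0.981) and NDRG1 (0.977), and GADD45G to EAF2 (0.972), HOPX (0.966) and NDRG1 (0.962). SPOCK1 was closest to CBX2 (0.974), EAF2 (0.959) and RPL29 (0.956). OTULINL was closest to CBX2 (0.973), EAF2 (0.970) and STK39 (0.970). EAF2, an androgen-responsive transcription elongation factor, was in the nearest 3 of 5 of the 6 genes that were higher in the mutants. ASCL2 was closest to TSKU (0.969), EAF2 (0.961) and UBE2J1 (0.956), and CDC42EP3 to CTNNA2 (0.944), OCEL1 (0.940) and EAF2 (0.938). For TICAM2 the nearest were H2BC21 (0.940), TP53INP1 (0.940) and LTN1 (0.938), and for ZNF134 NQO1 (0.966), FAM234A (0.953) and LTN1 (0.943). The points share arrays and groups, so r describes likeness of the group pattern.

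By their medians, the androgen-induced genes as a list ran in the direction of the SLC26A3 group. Of 18 tested, 2 were higher and 8 lower with wild-type SPOP (median -0.33, beside 0.00 over all genes), and 10 were higher and 2 lower in the mutants against control vector (median 0.34, beside -0.01). Against wild-type SPOP 12 were higher in the mutants and 0 lower (median 0.60, beside -0.01). Of all tested genes 3.08% were called higher and 3.07% lower with wild-type SPOP. In the mutants 5.59% were higher and 6.62% lower than control vector, and 5.57% and 6.18% than wild-type SPOP. Of the 18 genes of the list, EAF2, FKBP5 and ABCC4 met the opposite rule, which 0.18% of all tested genes met. EAF2 differed from control vector by -0.61 with wild-type SPOP and 0.55 in the mutants. Its call in the mutants was lost under 2 of 12 processing alternatives (limma adjusted p up to 0.711). FKBP5, a cochaperone of steroid receptors, showed -0.60 and 0.36, and ABCC4, an efflux transporter, showed -0.41 and 0.42, but both mutant values changed sign with scaling to equal medians. The wild-type call for ABCC4 was lost with 5 of 12 arrays left out singly (adjusted p up to 0.0991), and the mutant call for FKBP5 without control vector replicate 2 (0.0502). Other genes of the list did not run oppositely. PMEPA1 (-1.70 with wild-type SPOP and -0.99 in the mutants) and ELL2 (-0.67 and -0.54) were called lower on both sides. KLK3 (0.49 and 1.94) and TMPRSS2 (0.43 and 0.63) were called higher on both. The wild-type call for KLK3 was lost with 4 of 12 arrays left out singly (adjusted p up to 0.117). The members of this list were put together with earlier results of these arrays known, so its counts and medians are a description only.

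In the other 11 lists, of genes related to the 8, 0 met the opposite rule, which 0.18% of all tested genes met, so that nothing is read from this count. Beside the calls given below, 3.07% to 6.62% of all tested genes were called in each direction of these comparisons. Among SLC26 anion exchangers 4 of 10 listed genes were tested and 1 was called: SLC26A6 rose by 0.56 in the mutants against control vector (limma adjusted p 0.00185). That call was lost under 3 of 12 processing alternatives (adjusted p up to 0.575). Of 11 tested genes of chloride, bicarbonate and proton transport, 2 rose and 1 fell with wild-type SPOP, 3 rose and 1 fell in the mutants against control vector, and 1 was higher and 2 were lower with the mutants than with wild-type SPOP. NHERF1, a scaffold for apical transporters, rose by 0.61 in the mutants against control vector (adjusted p 0.00499, up to 0.521 and lost under 2 of 12 processing alternatives). Some others of the list ran differently. SLC12A2 was lower with the mutants than with wild-type SPOP (-0.50, adjusted p 0.00516). CA2, detected on 2 wild-type SPOP arrays and 0 mutant arrays, was at least 1.09-fold lower there (adjusted p 0.00691). SLC4A7 was lower than control vector on both sides (-0.57 and -0.44, adjusted p 0.00888 and 0.00949). Of 3 tested SPOCK and SPARC family genes only FSTL1 was called, and its value changed sign with scaling to equal medians. Among 9 proteoglycans SDC1, a syndecan, fell by 0.58 with wild-type SPOP (adjusted p 0.00317) and was 0.48 higher with the mutants than with wild-type SPOP (adjusted p 0.0031). Other proteoglycans ran differently: 2 rose with wild-type SPOP, SDC2 by 0.70 and TGFBR3 by 0.56 (adjusted p 0.0212 and 0.00578), and SDC4 and GPC1 were lower with the mutants than with wild-type SPOP (-0.50 and -0.41, adjusted p 0.0236 and 0.0481). The call for SDC2 was lost with 4 of 12 arrays left out singly, that for SDC4 with 3 and that for GPC1 with 9 (adjusted p up to 0.0861, 0.0843 and 0.158).

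OTULIN, the active deubiquitinase that cuts linear ubiquitin chains and the next gene to OTULINL, was 0.54 higher with the mutants than with wild-type SPOP (limma adjusted p 0.00245). It was 0.39 lower than control vector in wild-type SPOP (difference -0.39, adjusted p 0.0388), a call lost with 8 of 12 arrays left out singly (adjusted p up to 0.121). Against control vector the mutants differed by 0.15 (adjusted p 0.287). It was the sole member of 7 tested genes of the linear ubiquitin system to be called.

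Among 19 tested CDC42 effectors and septins, CDC42EP2 fell by 0.79 with wild-type SPOP (limma adjusted p 0.0082) and was 0.94 higher with the mutants than with wild-type SPOP (adjusted p 0.000898), both calls kept under all 24 alternatives. CDC42EP4 was 0.45 higher in the mutants than in control vector (adjusted p 0.0221), a call lost without control vector replicate 2 or 3 and a difference that changed sign with scaling to equal medians. IQGAP1 ran the other way, 0.38 higher with wild-type SPOP (adjusted p 0.0224, lost with 4 of 12 arrays left out singly) and lower with the mutants than with wild-type SPOP (-0.39, adjusted p 0.00717). CDC42BPB, a CDC42-binding kinase, was also lower there (-0.49, adjusted p 0.0195, or 0.102 without wild-type SPOP replicate 1). Of 12 tested genes of the GADD45 family and its partners, CDKN1A, the cell-cycle inhibitor p21, ran against GADD45G: it rose by 1.26 with wild-type SPOP (adjusted p 0.000115) and was lower with the mutants than with wild-type SPOP (-1.02, adjusted p 0.000256). Neither GADD45A nor GADD45B was called in these comparisons.

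Of 10 tested bHLH lineage and HES genes, HES4, a Notch-pathway repressor, rose by 0.83 in the mutants against control vector (limma adjusted p 0.000152) and by 0.61 against wild-type SPOP (adjusted p 0.00163). In the latter comparison 2 genes of the list were higher and 2 lower. ID1 and ID2, inhibitors of bHLH factors, were the lower ones, at -0.40 and -0.54 (adjusted p 0.0107 and 0.0437), and ID2 also fell in the mutants against control vector (-0.62, adjusted p 0.0241). ID1 rose by 0.37 with wild-type SPOP (adjusted p 0.0415). Of these ID calls, ID1 with wild-type SPOP and ID2 in the mutants against wild-type SPOP were each lost with 8 of 12 arrays left out singly, ID2 against control vector with 3, and ID1 in the mutants against wild-type SPOP with wild-type SPOP replicate 2 left out (0.0554). Of 8 tested WNT and stem cell genes 1 fell with wild-type SPOP, MYC at -0.43 (adjusted p 0.0322, lost with 5 of 12 arrays left out singly), and 1 rose in the mutants, AXIN2 at 0.49 (adjusted p 0.0408), a call lost with 8 of 12 arrays left out singly. Of 15 genes of the TLR3 and TLR4 adaptor pathway 0 were called in wild-type SPOP, and TLR4 itself was detected on no array. LY96, its coreceptor, was detected on all 3 control arrays and on 0 mutant arrays, at least 1.15-fold lower in the mutants (adjusted p 0.00936, and up to 0.0516 without control vector replicate 2 or 3). TICAM1 ran the other way from TICAM2, 0.53 higher with the mutants than with wild-type SPOP (adjusted p 0.0474). That call was lost with 11 of 12 arrays left out singly (adjusted p up to 0.19). Of 13 tested zinc finger genes of the ZNF134 cluster, ZNF549 alone was called, at -0.55 in the mutants against control vector and -0.58 against wild-type SPOP (adjusted p 0.00515 and 0.00457).

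By position, SPOCK1, OTULINL and TICAM2 were on chromosome 5, which held 4.28% of tested genes, and the other 5 genes were on 5 different chromosomes. Of the 48 nearest protein-coding neighbours, 3 on either side of each gene, 26 were tested and 0 met the opposite rule, beside 0.18% of all tested genes, and nothing is read from that. CYP1B1, near CDC42EP3, fell by 1.01 with wild-type SPOP (limma adjusted p 0.000344) and was also lower in the mutants than in control vector (-0.48, adjusted p 0.0107), while it was 0.54 higher with the mutants than with wild-type SPOP (adjusted p 0.00667), as CDC42EP3 was at 1.17.

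Markers of other cell types were checked because SLC26A3 and ASCL2 are best known from the intestine. Of 11 measured enterocyte and colonocyte markers 7 were detected on no array, VIL1, CDX1 and CDX2 among them. The summed level of the list, in linear units after normalization, was 253 to 268 on control arrays, 347 to 371 with wild-type SPOP and 283 to 349 on mutant arrays. That range followed CA1, a carbonic anhydrase detected on 0 of 3 control arrays, which was at least 3.84-fold higher with wild-type SPOP and at least 2.13-fold higher in the mutants (limma adjusted p 7.06e-07 and 6.18e-06). SLC26A3 was lowest with wild-type SPOP, where CA1 was highest. Tuft cell markers summed to 212 to 238 on control arrays, 197 to 254 with wild-type SPOP and 203 to 235 on mutant arrays, with 0 of 3 tested markers called.

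Immune markers summed to 314 to 320.5 on control arrays, 288 to 345 with wild-type SPOP and 347 to 409 on mutant arrays. CD68 was 0.42 higher in the mutants than in control vector (limma adjusted p 0.0214), and CD3E, LYZ and NKG7 were detected on no array. Neuroendocrine markers summed to 385 to 424 on control arrays, 538 to 594 with wild-type SPOP and 632 to 707 on mutant arrays. ENO2, a neuronal enolase, was higher on both sides (0.68 and 0.96, adjusted p 0.00179 and 2.85e-05), with CHGA, CHGB, SYP and SCG3 detected on no array. The part of these markers in the values of the 8 genes was not tested. In bulk RNA, fewer cells of a kind and less RNA per cell cannot be told apart.

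The sign of each difference from control vector was compared under 12 processing alternatives and with each of the 12 arrays left out. Wild-type SPOP kept its sign for 8 of 8 genes under all 24, and the mutants for 7 of 8, the exception being ASCL2 with arrays scaled to equal medians. SLC26A3 met the opposite rule under all 24. SPOCK1, OTULINL and ASCL2 met it under 10, 11 and 10 of the 12 processing alternatives and with every array left out. GADD45G met it under 8 and with 6 of 12 arrays left out, and CDC42EP3 under 6 and with 7. TICAM2 met it under 3 and with 3, and ZNF134 under 1 and with 1. The sizes were smaller on the authors' deposited log2 values, where SLC26A3 differed from control vector by -0.18 with wild-type SPOP and 0.58 in the mutants.

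**Figure D5:**
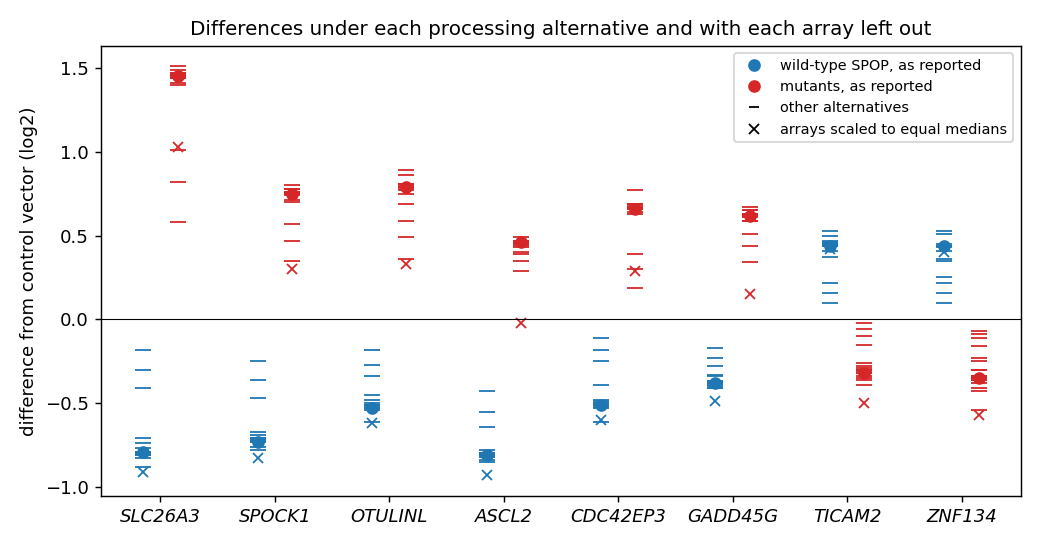
Log2 difference from control vector for wild-type SPOP (blue) and the mutants (red), as reported (filled points), under the processing alternatives and with each array left out (dashes), with equal-median scaling as crosses. The red cross for ASCL2, at -0.02, lies across 0 from its reported value.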

How the data were processed

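The 12 arrays were grouped by their titles. Per the file headers, the authors deposited non-normalized bead intensities on a linear scale with a detection p-value per probe. Whether background was subtracted beforehand is not stated. The authors also deposited processed log2 values, for which the submitters' processing notes name lumi with no version or settings. Those values served only as an alternative.

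Background correction and quantile normalization of the intensities used neqc (limma 3.58.1, R 4.3.3, offset 16). Probes with a detection p-value under 0.05 on at least 2 arrays were kept (23133), and the probe of highest mean stood for each gene (12227 genes). All 9 probes of the 8 genes passed, and 8 of them stood for their gene. Gene names came from GEO's platform annotation. The sources used here give no genome build, and promoter windows and neighbours came from RefSeq, GRCh38.p14. A model with 5 group means was fitted with lmFit and eBayes (7 residual and 4.67 prior degrees of freedom), with the 3 mutants averaged at equal weight. P-values were Benjamini-Hochberg adjusted over all genes and called under 0.05. The fit was tested on simulated data.

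The members and gene lists were chosen with earlier results of these data known. Named genes were the 8 members, SPOP, the 3 genes of highest r with each member, up to 3 called genes of lowest p per list and comparison, and 3 on either side of the rule's threshold. The further genes that met the rule, those called by the F test, undetected markers, ELL2, genes of both lists and neighbours, such as CYP1B1, were named after their values had been seen. A gene detected on no array of a group is given as at least the fold over the lowest detected signal of each dimmer array, or its own signal where higher. Alternatives were other background corrections, normalizations, filters, probe summaries, moderation, covariates and sets of arrays, and each array left out. The number of arrays limits the precision.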

Additional observations from a re-analysis of the deposited data

How the results depend on the processing

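Alternatives moved several counts by over 1.5 times. With no background correction, calls were 1375 for wild-type SPOP against control vector (752 as reported), 46 of opposite sign (22), 42 among the mutants (3), 53 for F133V with F133L, the F133 pair, against F102C (0) and 3 for F133L against F133V (1). With normexp they were 36 of opposite sign, 23 among the mutants, 31 for the F133 pair against F102C and 4 for F133L against F133V. On the authors' deposited log2 values they were 1286 for wild-type SPOP, 48 of opposite sign, 17 among the mutants and 28 for the F133 pair against F102C, and with trended robust eBayes 1259, 39, 57 and 43. Under these 4 settings 2 of the 8 genes were called among the mutants, against 0 as reported. Equal medians gave 6935 calls for mutants against control vector (1494), 4617 for mutants against wild-type SPOP (1437), 12 of opposite sign, 326 among the mutants, 38 for the F133 pair against F102C and 16 for F133L against F133V. Equal medians of detected probes gave 3031, 2204, and 0 among the mutants and between F133L and F133V. Reversed values were ASCL2 at -0.02 in mutants against control vector, and for F133V with F133L against F102C OTULINL -0.06, ASCL2 -0.08 and CDC42EP3 -0.16 with equal medians and TICAM2 0.08 with those of detected probes. The detected-probe number as a covariate left 343 calls for wild-type SPOP, 107 for mutants against control vector, 308 for mutants against wild-type SPOP, 1 of opposite sign (SLC26A3), and 0 among the mutants and between F133L and F133V. With a stricter detection filter 15 genes were called among the mutants, 10 for the F133 pair against F102C and 6 for F133L against F133V, and with the mean of a gene's probes 16, 5 and 8. With no filter 7 were called for F133L against F133V. With only the arrays compared, 0 were called among the mutants and between F133L and F133V. The cause was not tested.

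Same-numbered arrays did not deviate together (r -0.06 to 0.04 over 21 pairs, 5 of 12 arrays closest to their own number), so the numbers do not pair the arrays. With the replicate number as a block, 920 genes were called for mutants against control vector, 672 for mutants against wild-type SPOP, 11 of opposite sign and 0 among the mutants. With each array left out, calls ranged from 407 to 778 for wild-type SPOP, 888 to 1516 for mutants against control vector, 604 to 1422 for mutants against wild-type SPOP, 9 to 22 of opposite sign, 0 to 36 among the mutants, 0 to 0 for the F133 pair against F102C and 0 to 60 for F133L against F133V, and 0 of the 8 genes were called among the mutants. Blocking by slide was not run, since the headers used here name no slide. The deposited intensities of TICAM2 and ZNF134, 116 to 180 beside array medians of 109 to 130, leave little signal over background. CDC42EP3, at 135 to 200, and SLC26A3 with wild-type SPOP, at 138 to 159, were in a similar low range. The wild-type SPOP side of the SLC26A3 differences thus rests on low signal.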
